A study of Mus musculus with 6 samples.

Results

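The nuclear pore complex genes were followed in D10 cells, a mouse CD4+ helper T cell clone. Cultures spent 24 h at 26°C (cold-acclimated T cells, 3 libraries) or at 37°C (non-acclimated T cells, 3 libraries). Members were the protein-coding rows whose symbol starts with Nup and a digit, together with Pom121, Ndc1, Tpr, Aaas, Seh1l, Sec13, Rae1, Ranbp2 and Ahctf1, which gave 32 of the 41079 listed genes. The symbol Nup50l was left out because its row is listed as a pseudogene. The question was how transcripts of this complex differed between the temperatures. All cells were labelled as the same line and were grown with IL-2, and no genetic change is given in the labels. D10 is described as 1 clone, so the results apply to these cultures only, and Cd4 levels that differed between the replicates are given below. The labels call the replicates independent experimental batches of RNA extraction, old or new, without saying which library was which.

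Nuclear pore complexes are large channels in the nuclear envelope through which proteins, RNAs and ribosomal subunits pass. An outer ring (the Nup107-Nup160 or Y complex) and an inner ring form the scaffold, and transmembrane nucleoporins anchor it in the membrane. Nucleoporins with phenylalanine-glycine repeats fill the channel and bind transport receptors, while filaments on the cytoplasmic side and a basket on the nuclear side act in export and docking. Dividing cells rebuild their pores after mitosis and add pores during interphase.

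Abundance is given as TPM (relative transcript abundance), for which the reads of each gene were divided by its length and each library was scaled to the same total, so levels can be compared between genes. A gene was called higher or lower where the difference in mean log2(TPM + 1) was 1 or more in size and the limma p, adjusted by Benjamini-Hochberg across the 12227 genes averaging at least 1 TPM, was under 0.05. The read numbers recovered from the TPM summed to between 16837386 and 31180751 per library. For all tested genes the median log2 fold change was -0.34 on the deposited scale and 0.02 after median of ratios scaling, which sets the libraries to a common typical gene, so changes are also given relative to this median. Of 10 T cell markers, 8 had at least 1 TPM in every library, Cd5 was at most 0.0454 TPM, and Cd4 had 1.09, 0.0351 and 310 TPM in non-acclimated replicates 1, 2 and 3 and 1.30, 0.352 and 328 TPM in the cold-acclimated ones. The CD4+ label was thus met by Cd4 transcripts in replicate 3 alone, and the counts of called members are also given for replicates 1 and 2 alone. The summed level of 9 B cell markers was 2.1 to 3.62 TPM in non-acclimated and 1.02 to 2.06 TPM in cold-acclimated cells, with Ms4a1 and Blnk at 0 throughout. For 8 macrophage markers it was 1.42 to 12.5 and 0.976 to 15.2 TPM, with Cd14 at 0 and most of the sum in Lyz2 in replicate 3.

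Of the 32 members, 30 were tested. Nup62cl was listed at 0 in every library, and Nup210l, a paralog of Nup210 known from the testis, had a mean of 0.626 TPM in non-acclimated and 0.594 TPM in cold-acclimated cells, under the minimum. The 30 tested members rested on between 140 and 19314 recovered reads in a library. In non-acclimated cells their mean levels ran from 13.9 TPM (Nup42) to 230 TPM (Nup210), with a median of 77.7 TPM against 23.5 TPM for all tested genes. In cold-acclimated cells they ran from 8.35 TPM (Nup35) to 217 TPM (Pom121), with a median of 60.9 TPM against 17.0 TPM for all tested genes.

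**Figure D1:**
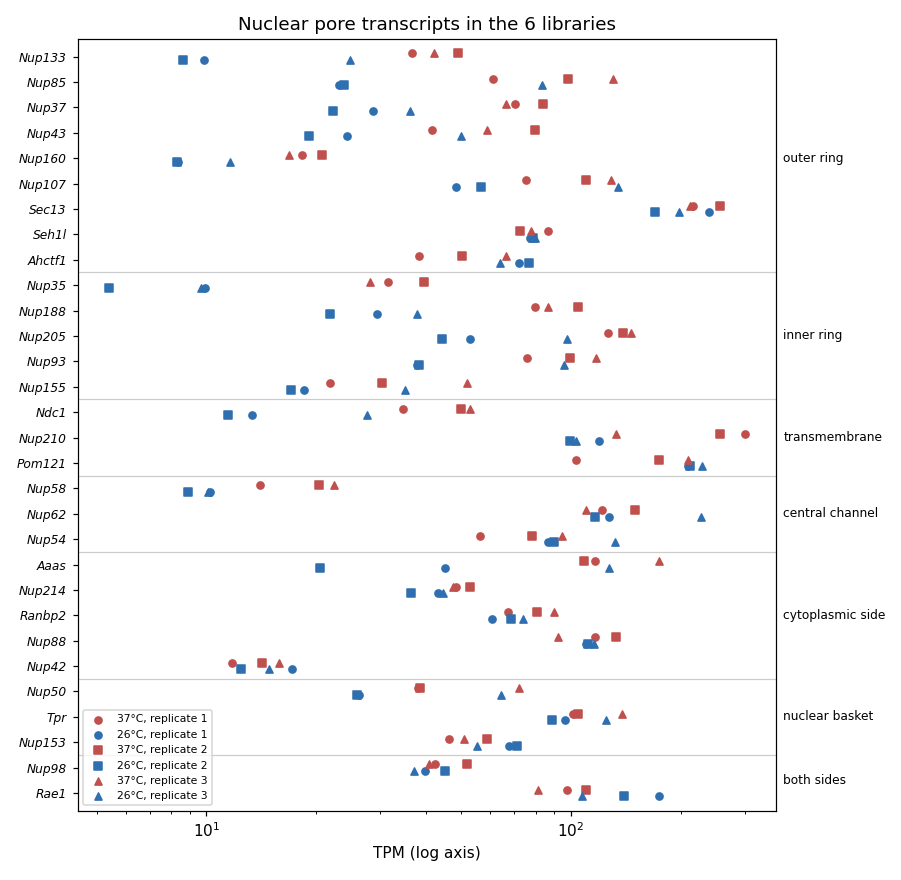
TPM of the 30 tested nuclear pore genes in each library (log axis), grouped by place in the pore, with red symbols for 37°C and blue for 26°C and 1 symbol shape per replicate. For 10 genes, among them Nup35 and Nup188, all blue symbols lie to the left of all red ones, and for no gene do all lie to the right.

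After cold acclimation 6 of the 30 tested members (20%) were called lower, where 16.0% of all tested genes were. None was called higher, where 2.63% of all genes were. At an unadjusted limma p under 0.05, 11 members were lower (30.0% of all genes) and 0 higher (7.75%). By adjusted p without a size threshold, 7 were lower (17.4% of all genes) and 0 higher (3.30%), and voom on the recovered reads called 6 lower (13.9%) and 0 higher (3.35%). In 10 members the conditions did not overlap, with lower values in the cold (31.4% of all tested genes), and in 0 members were all cold-acclimated values higher (9.69% of all tested genes). The share called lower is thus near that of all genes and is not a result about the complex. The median log2 fold change of the members was -0.46, which is 0.12 below that of all genes, with a range from -1.89 (Nup35) to 0.53 (Rae1). Within replicates 1, 2 and 3 the members' median lay 0.00, -0.25 and 0.04 from that of all genes. The 6 called members were Nup35, Nup188 and Nup205 of the inner ring, Nup133 and Nup37 of the outer ring and the transmembrane nucleoporin Ndc1. After median of ratios scaling 3 members were called lower (Nup35, Nup188 and Nup133), beside 8.80% of all genes, and 0 higher, beside 6.56%. Quantile normalization gave 4 lower (6.26% of all genes) and 0 higher (5.98%). With the replicate as a block 9 were lower (21.9% of all genes) and 0 higher (3.75%), and in replicates 1 and 2 alone 12 were lower (25.5%) and 0 higher (5.41%). With 1 library left out, 2, 0 and 4 were called lower without non-acclimated replicates 1, 2 and 3 in turn. Without cold-acclimated replicates 1, 2 and 3 the counts were 2, 2 and 11. The shares of all genes called in these fits are not given, so these counts are not a result about the members.

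**Figure D2:**
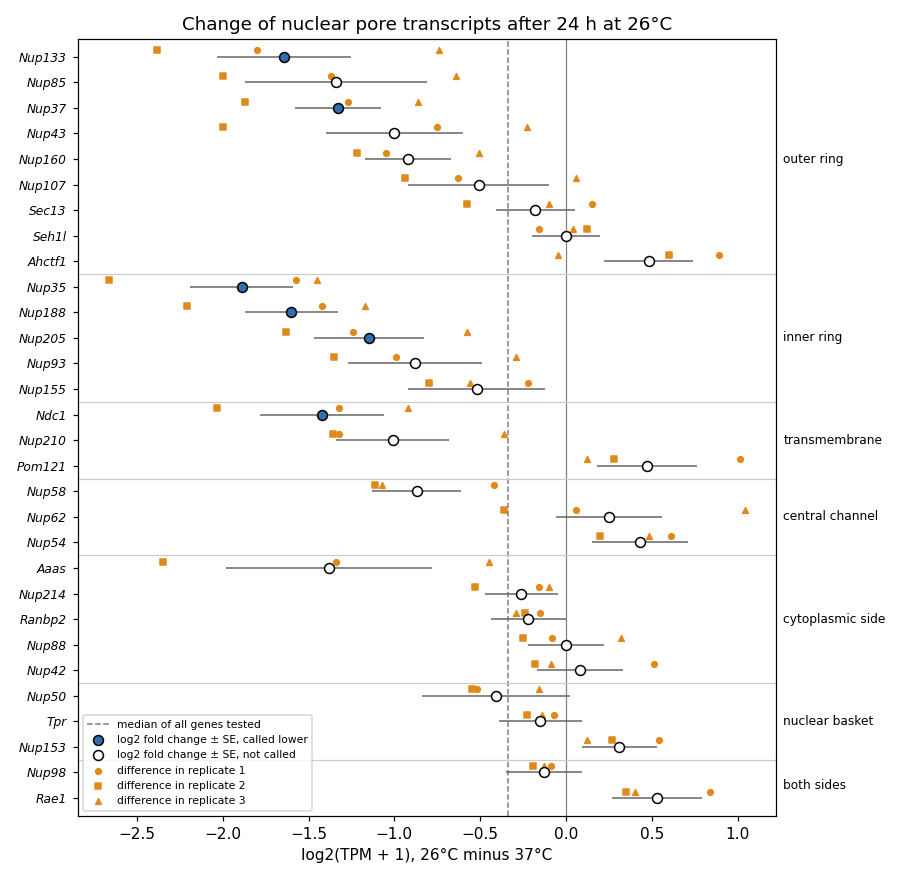
Difference in log2(TPM + 1), 26°C minus 37°C, for the 30 tested nuclear pore genes: large circles with bars give limma's log2 fold change ± SE (filled where called lower) and small orange symbols the difference within each replicate. The 6 filled circles lie between -1.89 and -1.15 in the inner ring, outer ring and transmembrane groups, and the dashed line marks the median of all tested genes, -0.34.

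Promoters were read from the 250 bases before the start of the canonical GENCODE transcript. There, a CCAAT box (CCAAT, both strands) was present in 1 of the 6 called members, 11 of the other 24 and 36.5% of all promoters. A GC box (GGGCGG, both strands) was present in 1, 15 and 50.3%, and an ETS motif (CCGGAAG, both strands) in 2, 4 and 11.3%. The CHR (TTTGAA, both strands), a motif known from cell cycle genes, was present in 2, 3 and 12.3%. An E-box (CACGTG) was present in 1, 4 and 8.11%, the NRF1 motif in 0, 1 and 1.16%, and an E2F motif (TTTGGCGC, both strands) in 0, 0 and 0.778%. With 6 promoters such counts are descriptions only.

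The last 100 bases before the start are shown, to set promoters at both ends of the range side by side, for the members with the lowest (Nup35 and Nup85) and highest (Nup153 and Pom121) fold changes, among the 9 tested members whose 250 bases hold no annotated exon. Each is written 5′ to 3′ on the strand of its gene, and capitals mark any of these motifs. The windows are chr2:80469043-80469142 (plus strand, Nup35), chr11:115455155-115455254 (plus, Nup85), chr13:46881493-46881592 (minus, Nup153) and chr5:135423413-135423512 (minus, Pom121) on GRCm39. The canonical starts of Pom121 and Nup153 lie inside the spans listed for these genes, which begin further upstream.
Nup35: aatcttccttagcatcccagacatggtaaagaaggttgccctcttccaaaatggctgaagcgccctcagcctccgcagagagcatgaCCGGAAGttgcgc
Nup85: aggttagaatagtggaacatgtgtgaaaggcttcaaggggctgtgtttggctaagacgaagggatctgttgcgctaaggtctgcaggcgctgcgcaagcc
Nup153: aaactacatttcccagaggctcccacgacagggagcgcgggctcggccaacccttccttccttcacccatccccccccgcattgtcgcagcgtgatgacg
Pom121: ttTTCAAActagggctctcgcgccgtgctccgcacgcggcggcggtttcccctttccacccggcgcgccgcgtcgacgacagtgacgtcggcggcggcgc
The window of Nup35, which fell most, holds an ETS motif that begins 13 bases before the start and has a GC content of 54%, and that of Nup85 has 53% and none of the motifs. The window of Pom121 has a GC content of 72% and a CHR on the other strand 98 bases before the start, and that of Nup153 has 63% and none of the motifs.

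The 5 inner ring genes encode the scaffold around the central channel, and 3 of them were called lower, beside 16.0% of all genes. The places in the pore were assigned with results of these data known. Nup35, which encodes a membrane-binding nucleoporin of the ring (chr2:80469156-80490415, GRCm39), had 31.5, 39.6 and 28.2 TPM in non-acclimated replicates 1, 2 and 3 and 9.94, 5.41 and 9.68 TPM in the cold-acclimated ones. Every cold-acclimated value was below every non-acclimated one, and the mean fell 3.97-fold, from 33.1 ± 5.91 (SD, n = 3) to 8.35 ± 2.54 TPM (SD, n = 3), with a log2 change of -1.89 ± 0.30 (SE, limma adjusted p = 0.0093). Nup188 (chr2:30176419-30234278), one of the large scaffold proteins, had 79.9, 105 and 86.4 TPM without and 29.3, 21.9 and 37.9 TPM with cold acclimation. It did not overlap either and fell 3.05-fold, with a log2 change of -1.60 ± 0.27 (SE, limma adjusted p = 0.011). Both kept their call with every library left out in turn except non-acclimated replicate 2, without which the limma adjusted p was 0.052 for Nup35 and 0.057 for Nup188.

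Nup205 (chr6:35154551-35224534), the paralog of Nup188 in the ring, had 127, 139 and 146 TPM at 37°C and 52.9, 44.3 and 97.5 TPM at 26°C. The cold-acclimated library of replicate 3 lay between the other cold-acclimated libraries and the non-acclimated ones. Nup205 fell 2.12-fold, with a log2 change of -1.15 ± 0.32 (SE, limma adjusted p = 0.041). Median of ratios scaling (limma adjusted p = 0.092) and dropping the filter on low values (0.076) each end the call. With 1 library left out, its call was kept without cold-acclimated replicate 3 but with no other library left out, the highest limma adjusted p being 0.14. Nup93, which links the ring to the channel nucleoporins, had 75.8, 99.4 and 117 TPM without and 37.7, 38.4 and 95.9 TPM with cold acclimation, values that overlapped through replicate 3 (log2 fold change -0.88, limma adjusted p = 0.15). Nup155, another scaffold protein of the ring, had 21.8, 30.4 and 52.0 TPM without and 18.6, 17.1 and 35.0 TPM with cold acclimation (log2 fold change -0.52, limma adjusted p = 0.38), and its values also overlapped. All 5 inner ring genes had negative fold changes in all 3 replicates. The median of all tested genes was negative in each replicate too (-0.32, -0.44 and -0.24), and the share of all genes negative in all 3 is not given. The inner ring median was 0.81 below that of all genes, and 0.78 below after median of ratios scaling.

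The 9 outer ring genes were spread most widely, with log2 fold changes from -1.64 to 0.48 and a median of -0.92, and 2 of them were called lower (22.2%, beside 16.0% of all genes). Nup133 (chr8:124623862-124676019), at the end of the Y-shaped complex, had 36.7, 49.1 and 42.2 TPM at 37°C and 9.86, 8.62 and 24.8 TPM at 26°C. The conditions did not overlap, replicate 3 fell least, and the mean fell 2.96-fold (log2 fold change -1.64 ± 0.39 SE, limma adjusted p = 0.028). Nup37 (chr10:87982838-88014257), a small beta-propeller subunit, had 70.5, 83.9 and 66.4 TPM without and 28.6, 22.2 and 36.2 TPM with cold acclimation. It fell 2.54-fold in the same way, without overlap (log2 fold change -1.33 ± 0.25 SE, limma adjusted p = 0.015), but by 0.94 on the log2 scale after median of ratios scaling, under the size required. With 1 library left out, the call of Nup133 was kept only without cold-acclimated replicate 3 and that of Nup37 only without replicate 3 of either condition, with limma adjusted p of up to 0.10 and 0.073. The call of Nup133 also ended under quantile normalization (adjusted p = 0.051 in limma) and without the filter on low values (0.065).

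Nup85, an arm of the Y complex, had 61.2, 98.2 and 130 TPM without and 23.1, 23.8 and 83.4 TPM with cold acclimation. It was lower at 26°C within each replicate, but the levels overlapped, with replicate 3 highest in both conditions. Its log2 fold change was -1.34 with an adjusted p of 0.11 in limma, and 0.015 with the replicate as a block, which calls it lower. Nup160, the partner of Nup85 in the complex, had 18.4, 20.7 and 16.9 TPM against 8.38, 8.31 and 11.6 TPM, without overlap. It had an adjusted p of 0.038 in limma, but its log2 fold change of -0.92 was under the size required. Nup43, another beta-propeller subunit, had 41.6, 79.7 and 58.9 TPM without and 24.4, 19.1 and 49.9 TPM with cold acclimation (log2 fold change -1.0, limma adjusted p = 0.11), with overlap through replicate 3. Nup107, which binds Nup133, had 75.5, 110 and 129 TPM without and 48.3, 56.8 and 134 TPM with cold acclimation, and in replicate 3 it was not lower (log2 fold change -0.51, limma adjusted p = 0.42).

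The other 3 outer ring genes stayed closer to their 37°C level or were nominally above it, and none was called. Sec13, which is also a coat subunit of vesicles leaving the endoplasmic reticulum, had 216, 256 and 213 TPM without and 240, 171 and 198 TPM with cold acclimation (log2 fold change -0.18, standard error 0.23). Seh1l, which like Sec13 also belongs to a complex that controls mTORC1, had 86.5, 72.5 and 77.6 TPM against 77.0, 78.9 and 79.7 TPM, a log2 fold change of 0.00 ± 0.20 (SE) that was 0.39 after median of ratios scaling. The sign for Sec13 turned to 0.22 under that scaling. On the opposite strand 4930549G23Rik overlaps Seh1l over 19455 bases and had 61.6 to 80.9 TPM, so reads of Seh1l may not be its own alone. Ahctf1, which encodes ELYS, the chromatin-binding protein that starts pore assembly after mitosis, had 38.3, 50.3 and 66.2 TPM without and 72.0, 76.6 and 64.1 TPM with cold acclimation. It was higher in replicates 1 and 2 and not in replicate 3 (log2 fold change 0.48 ± 0.26 SE, limma adjusted p = 0.22).

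Among the transmembrane nucleoporins, Ndc1 (chr4:107225244-107273543) had 34.7, 50.1 and 53.0 TPM at 37°C and 13.3, 11.5 and 27.5 TPM at 26°C. The conditions did not overlap and the mean fell 2.63-fold (log2 fold change -1.42 ± 0.36 SE, limma adjusted p = 0.033). The limma adjusted p was 0.061 after median of ratios scaling, 0.066 after quantile normalization and 0.071 without the filter on low values, which end the call, and with 1 library left out the call was kept only without cold-acclimated replicate 3, with limma adjusted p of up to 0.12. Nup210 (chr6:90990049-91095920), the most abundant member at 37°C, had 300, 257 and 133 TPM without and 120, 99.2 and 103 TPM with cold acclimation. The conditions did not overlap, but at 37°C replicate 3 was 1.05 below the mean of replicates 1 and 2 on the log2 scale, the lowest such value of the 30 members. Nup210 had a log2 fold change of -1.01 with an adjusted p of 0.064 in limma, 0.024 with the replicate as a block and 0.017 without non-acclimated replicate 3, and was called lower in both of the latter. Pom121 (chr5:135404994-135433587), which carries phenylalanine-glycine repeats, had 103, 175 and 210 TPM without and 210, 212 and 228 TPM with cold acclimation. Its cold-acclimated values were nearly equal while those at 37°C differed between replicates (log2 fold change 0.47 ± 0.29 SE, limma adjusted p = 0.28).

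None of the 3 central channel genes was called (16.0% of all genes lower, 2.63% higher). An unadjusted limma p under 0.05 was found for 1, Nup58, which was lower (30.0% of all genes). Nup62, the core of the channel complex, had 122, 150 and 110 TPM without and 127, 116 and 228 TPM with cold acclimation. Replicate 3 alone was clearly higher in the cold, and the log2 fold change of 0.25 ± 0.31 (SE) turned to -0.15 in replicates 1 and 2 alone. Il4i1b, which overlaps Nup62 on the same strand over 15467 bases, was listed at 0.317 TPM or less in every library, and how reads from shared bases were assigned is not given. Nup54, a partner of Nup62, had 56.5, 78.2 and 94.8 TPM against 86.5, 90.1 and 132 TPM, higher in the cold within each replicate but with overlap (log2 fold change 0.43, limma adjusted p = 0.32). Nup58, the other partner, had 14.1, 20.4 and 22.4 TPM against 10.2, 8.90 and 10.1 TPM, without overlap (log2 fold change -0.87, limma adjusted p = 0.053).

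The cytoplasmic side has 5 genes, the nuclear basket 3, and 2 are found on both sides. Limma on all 6 libraries without a block called none of them (16.0% of all genes lower, 2.63% higher). None had an unadjusted p under 0.05 there (30.0% of all genes lower, 7.75% higher). Aaas, which encodes the protein ALADIN, had 116, 109 and 174 TPM without and 45.2, 20.6 and 127 TPM with cold acclimation. Its log2 differences were -1.34, -2.35 and -0.45 in replicates 1, 2 and 3, and its log2 fold change of -1.38 ± 0.60 (SE) had an adjusted p of 0.13 in limma and of 0.025 with the replicate as a block, which calls it lower. Aaas was also called lower in replicates 1 and 2 alone (limma adjusted p = 0.015) and without cold-acclimated replicate 3 (limma adjusted p = 0.011). The other 4 genes of this side had log2 fold changes between -0.26 and 0.08. Nup214, which with Nup88 forms an export platform, had 48.4, 52.9 and 47.6 TPM without and 43.2, 36.4 and 44.5 TPM with cold acclimation, a small difference without overlap (log2 fold change -0.26, limma adjusted p = 0.41). Nup88 had 116, 133 and 92.0 TPM against 110, 111 and 115 TPM. Ranbp2, the giant filament protein that binds Ran, had 67.4, 80.7 and 90.2 TPM against 60.7, 68.4 and 73.8 TPM. Nup42, a cofactor of mRNA export, was the least abundant tested member at 37°C, with 11.8, 14.2 and 15.9 TPM against 17.2, 12.4 and 14.8 TPM, and the values of these 3 genes overlapped. After median of ratios scaling the log2 fold changes of Nup214, Ranbp2 and Nup88 turned to 0.13, 0.17 and 0.39.

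Of the basket genes, Tpr, the main filament protein, had 101, 104 and 138 TPM without and 96.4, 88.7 and 125 TPM with cold acclimation (log2 fold change -0.15, standard error 0.24, and 0.25 after median of ratios scaling). Nup153, the basket's anchor with phenylalanine-glycine repeats, had 46.4, 58.8 and 50.9 TPM against 67.7, 71.2 and 55.3 TPM (log2 fold change 0.31, limma adjusted p = 0.35). Nup50, a mobile partner of Nup153 in import, had 38.1, 38.5 and 72.3 TPM against 26.3, 25.9 and 64.5 TPM, with replicate 3 high in both conditions (log2 fold change -0.41, limma adjusted p = 0.53). Rae1, which binds mRNA together with Nup98, had the highest fold change of the members. Its values were 97.5, 110 and 81.2 TPM without and 175, 140 and 107 TPM with cold acclimation, higher within each replicate but with overlap (log2 fold change 0.53 ± 0.26 SE, limma adjusted p = 0.18). Nup98, whose transcript also encodes an outer ring protein cleaved from the same precursor, had 42.4, 51.7 and 40.7 TPM against 39.9, 45.3 and 37.2 TPM (log2 fold change -0.13, standard error 0.22, and 0.26 after median of ratios scaling).

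The share of each part of the pore in the summed TPM of the 30 members does not depend on the scaling between libraries, since it is taken within a library. It was not tested, because the parts were drawn up with results of these data known. The sum itself was 2557 ± 227 TPM (SD, n = 3) without and 2044 ± 365 TPM (SD, n = 3) with cold acclimation. The inner ring held 14.6%, 15.2% and 16.2% of it in non-acclimated replicates 1, 2 and 3 and 7.70%, 7.26% and 11.2% in the cold-acclimated ones, so that the conditions did not overlap. The central channel genes held 8.39%, 9.14% and 8.55% without and 11.6%, 12.3% and 15.1% with cold acclimation, again without overlap but in the other direction. Their summed TPM did overlap, with 193, 248 and 227 TPM without and 224, 215 and 370 TPM with cold acclimation. A share also rises where the other members fall. The outer ring held 28.1 to 30.2% without and 26.6 to 27.8% with cold acclimation, also without overlap. The transmembrane genes held 17.2 ± 2.12% and 17.0 ± 2.02%, with lower means for Nup210 and Ndc1 and a higher mean for Pom121 at 26°C. The basket genes held 8.45 ± 1.24% (7.43 to 9.83%) and 10.2 ± 0.401% (9.88 to 10.6%), so their shares did not overlap either. Nup98 with Rae1 held 5.54 ± 0.828% and 9.20 ± 2.88%, with overlap.

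**Figure D3:**
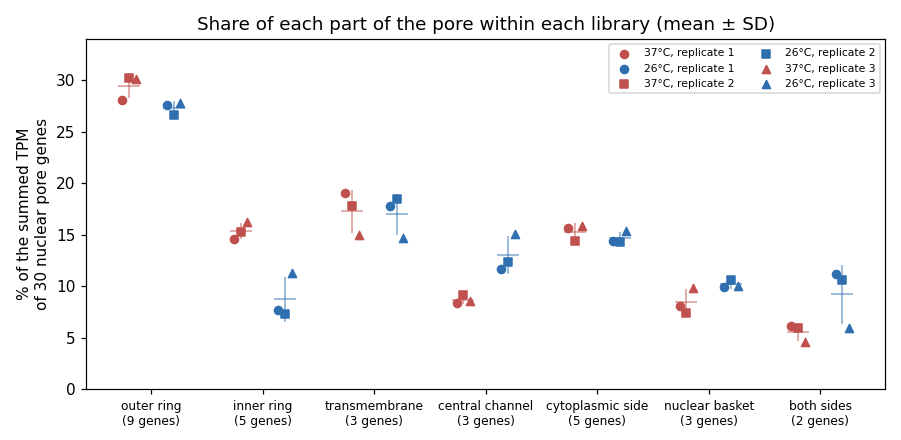
Share of each part of the pore in the summed TPM of the 30 tested nuclear pore genes, in percent, with 1 symbol per library (red 37°C, blue 26°C) and the mean ± SD of 3 libraries as crosses. The inner ring lies at 14.6 to 16.2% at 37°C and at 7.26 to 11.2% at 26°C, and the central channel lies at 8.39 to 9.14% and at 11.6 to 15.1%.

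Replicate 3 differed least between the temperatures. The number of members that differed by -1 or less on the log2 scale was 10, 13 and 3 of 30 in replicates 1, 2 and 3, beside 26.5%, 30.8% and 15.3% of all tested genes, so that replicate 3 had the lowest share among all genes too. The outer ring median was -0.75, -1.22 and -0.23, beside -0.32, -0.44 and -0.24 for all tested genes. Across the 30 members Pearson's correlation of these differences was 0.94 between replicates 1 and 2, 0.72 between 1 and 3 and 0.76 between 2 and 3. Members share their libraries, so this describes the 6 libraries and is no test. In the cold-acclimated library of replicate 3, 24 of the 30 members were above the mean of the other cold-acclimated libraries, by up to 2.03 on the log2 scale (Aaas). The share of all genes above that mean is not given, so this count is not a result about the members. Genes of the cell cycle differed in the same order of replicates. The 12 proliferation genes listed beside them summed to 2663, 2918 and 2819 TPM in non-acclimated and to 866, 522 and 2401 TPM in cold-acclimated replicates 1, 2 and 3. All 12 had negative fold changes, as did 8137 of the 12227 genes tested, and 4 were called lower (33.3%, beside 16.0% of all genes). With the replicate as a block 8 were called lower (21.9% of all genes), and in replicates 1 and 2 alone 11 were (25.5% of all genes). Their median difference was -1.82, -2.64 and -0.21 in replicates 1, 2 and 3. Top2a, the topoisomerase of dividing cells, had 531, 441 and 483 TPM without and 54.6, 33.4 and 278 TPM with cold acclimation, and the proliferation marker Mki67 had 230, 235 and 163 TPM against 62.1, 43.1 and 173 TPM. The part of these genes and of Cd4 in the results of the pore genes was not tested, and fewer dividing cells cannot be told apart from less RNA per cell in bulk libraries.

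Other genes of nuclear transport were taken from lists of transport receptors, the Ran cycle and mRNA export. Of 23 receptors tested, 2 were called lower (8.7%, beside 16.0% of all genes) and 0 higher (beside 2.63%), with a median log2 fold change of -0.23, which is 0.11 above that of all genes. Kpna2, an importin alpha that carries cargo with a nuclear localization signal, had 424, 372 and 329 TPM without and 82.4, 56.7 and 145 TPM with cold acclimation. It did not overlap and fell 3.96-fold (log2 fold change -2.07 ± 0.35 SE, limma adjusted p = 0.011). Cse1l, the exporter that returns importin alpha to the cytoplasm, fell 2.26-fold, from 139 ± 21.9 to 61.5 ± 17.3 TPM (log2 fold change -1.19, limma adjusted p = 0.023), and its log2 fold change was -0.79 after median of ratios scaling. The most abundant receptors were Ipo5, with a mean of 425 TPM without and 569 TPM with cold acclimation, and Kpnb1, the importin beta of the classical pathway, with 365 and 412 TPM, and neither was called. With the replicate as a block 5 of the 23 receptors were called lower, near the 21.9% of all genes, so this is not a result about the receptors. The 3 gained were Xpo1 (the main protein exporter), Ipo11 and Ipo13, with limma adjusted p of 0.025, 0.021 and 0.014. These 3 are named after their values were seen.

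Of 9 genes of the Ran cycle, which gives transport its direction, limma on all 6 libraries called none (16.0% of all genes lower, 2.63% higher). None had an unadjusted limma p under 0.05 (30.0% of all genes lower, 7.75% higher), and voom called 0 as well (13.9% and 3.35%). In replicates 1 and 2 alone 1 was called lower (25.5% of all genes) and 0 higher (5.41%). It was Rangap1, named after its values were seen, with a log2 fold change of -1.17 there (limma adjusted p = 0.011). Ran itself had 728, 1203 and 1650 TPM without and 948, 990 and 1676 TPM with cold acclimation, so that the libraries of one condition differed more than the conditions did (log2 fold change 0.04, standard error 0.37). Ranbp1, its cofactor, had a log2 fold change of 0.27 ± 0.35 (SE). Of 25 mRNA export genes, 1 was called lower (4%, beside 16.0% of all genes) and 0 higher (beside 2.63%), with 3 higher at an unadjusted limma p under 0.05 (7.75% of all genes). The balance turned with the scaling. Median of ratios scaling called 0 lower and 2 higher (Thoc3 and Ddx19b), beside 8.80% and 6.56% of all genes, and quantile normalization called 0 lower and 3 higher (Pcid2 as well), beside 6.26% and 5.98%. These higher genes are named after their values were seen. The called gene was Thoc5, a subunit of the THO complex that loads export factors, with 52.1, 61.8 and 67.1 TPM without and 19.8, 12.4 and 35.2 TPM with cold acclimation (log2 fold change -1.50, limma adjusted p = 0.030 and 0.056 after median of ratios scaling). Sem1 and Ddx39b, the most abundant genes of the list, had log2 fold changes of 0.21 and -0.03. Thoc3, another THO subunit, had 59.2, 86.1 and 117 TPM against 190, 137 and 191 TPM. It was higher without overlap and was called higher with the replicate as a block and under median of ratios scaling, quantile normalization and voom (log2 fold change 1.01, limma adjusted p = 0.051 and 0.024 with the block).

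**Figure D4:**
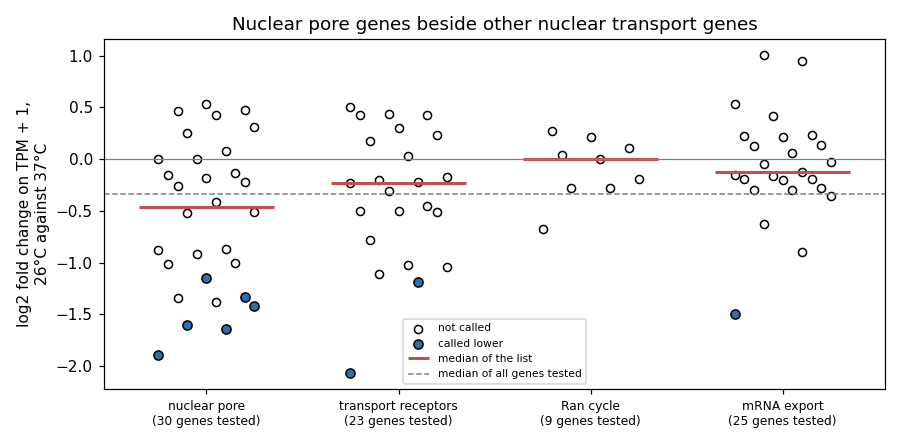
log2 fold change on TPM + 1, 26°C against 37°C, of the tested genes of the nuclear pore and of 3 lists of nuclear transport genes, with 1 point per gene (filled where called lower) and the list's median as a red line. The medians are -0.46, -0.23, 0.00 and -0.12, beside -0.34 for all tested genes (dashed line).

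The members were also compared by features that their symbols do not set, with the canonical GENCODE transcript of each gene on GRCm39. The 30 tested members had a median of 18.5 exons and a transcript length of 4212 bases, against 9 exons and 3343 bases for 10280 protein-coding genes tested. The 6 called members had a median of 22 exons and 5206 bases and a GC content of 47.1%, and the other 24 had 18 exons, 3922 bases and 48.4%. Spearman's correlation of transcript length with the log2 fold change over the 30 members was 0.14, and that of the exon number was -0.21, both given as descriptions.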

How the data were processed

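Poly(A)+ RNA was sequenced from 6 libraries, and the authors deposited TPM values per gene. Per the labels the reads were checked with FastQC 0.11.7, trimmed with Trimmomatic 0.38, aligned to GRCm39 with HISAT2 2.1.0 and counted with featureCounts 1.6.3. The libraries were made with a directional kit, which keeps the strand. The sources used here give no annotation release, gene lengths or strand setting for the counting, so it is not known whether reads of antisense genes were separated. Besides Seh1l, this bears on Nup160, overlapped over 19012 bases by Gm39872 (4.18 to 10.8 TPM). It also bears on Nup43, overlapped over 11383 bases by Pcmt1 (26.0 to 41.0 TPM). Since TPM is relative, a change of abundant genes moves all others. Whole reads were recovered by finding, for each gene, the step its TPM values share, and were whole within 1e-06 reads for 100% of 21195 genes, with the largest deviation 5.8e-11 reads.

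Values of log2(TPM + 1) were compared between conditions in limma 3.58.1 (R 4.3.3), allowing a trend of variance with mean and no replicate term, over genes with a mean of at least 1 TPM. Alternatives were a pseudocount of 0.1, no filter on low values, median of ratios scaling, quantile normalization, a replicate block, voom on the recovered reads, leaving out each library in turn and, added after seeing the data, replicates 1 and 2 alone. Same-numbered libraries deviated together from their condition's mean (correlation across genes 0.48, 0.50 and 0.51, and -0.41 to 0.02 otherwise), so the replicate numbers pair the libraries. The procedure was tested on simulated data. The members, the gene lists and the rule for named genes were chosen with earlier results of these data known. Under this rule every member could be named, together with each called gene and the 2 most abundant genes of each transport list. Transcripts and promoters were taken from GENCODE M39 on GRCm39, with Python 3.11.15, numpy 2.4.6, pandas 2.3.3, scipy 1.17.1 and matplotlib 3.10.9.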

Additional observations from a re-analysis of the deposited data

How the results depend on the processing

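The number of nuclear pore genes called lower, 6 (16.0% of all genes), was 3 without a filter on low values and 0 to 11 with 1 library left out. After median of ratios scaling it was 3 (8.80% of all genes). It was 12 (25.5% of all genes) in replicates 1 and 2 alone, an alternative added after seeing the data. With the replicate block it was 9 (21.9% of all genes), and Nup85, Nup210 and Aaas were the calls gained. No member was called higher under any of these alternatives. The members' median relative to all genes, -0.12, was -0.34 without a filter and between -0.44 and 0.07 with 1 library left out. The 3 transport genes called, lower or higher, were among 23 receptors, 9 Ran cycle and 25 mRNA export genes tested. After quantile normalization 5 were called, beside 6.26% of all genes lower and 5.98% higher. With the replicate block 7 were (21.9% lower and 3.75% higher), and in replicates 1 and 2 alone 9 were (25.5% and 5.41%). None of these counts is a result about the transport genes. With 1 library left out 0 to 9 were called, 0 when it was non-acclimated replicate 2 and 9 when it was cold-acclimated replicate 3. The count was 1 when it was replicate 1 of either condition or cold-acclimated replicate 2. Shares of all genes called without the filter or with 1 library left out are not given, so those counts are not a result about the pore or transport genes. The causes were not tested.

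Of members that were not called, some turned sign. After median of ratios scaling Nup214 had a log2 fold change of 0.13, Nup88 of 0.39, Nup98 of 0.26, Ranbp2 of 0.17, Sec13 of 0.22, Seh1l of 0.39 and Tpr of 0.25. After quantile normalization Nup214 had 0.02, Nup88 0.11, Nup98 0.17 and Seh1l 0.19, and voom gave 0.13 for Nup88 and 0.13 for Seh1l. Nup62 had -0.15 in replicates 1 and 2 alone. With 1 library left out the range was -0.03 to 0.19 for Nup42, -0.05 to 0.43 for Nup62, -0.14 to 0.12 for Nup88 and -0.06 to 0.07 for Seh1l.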
